A study of Mus musculus with 8 samples.

Results

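The genes described here are 10 members of the Wnt and Tcf pathway: the receptor Fzd7, the destruction complex genes Apc, Axin2 and Gsk3b, the effector Ctnnb1, the transcription factors Tcf7l1, Tcf7l2 and Tcf7, and the target genes Sp5 and Cdx1. They were chosen by name, with earlier results of these data known. Their chromatin accessibility was read from the ATAC-seq peaks whose centre lay inside the GRCm38 span of a member or within 50 kb of it, which were 240 of the 134407 peaks in the deposited table. Of these, 178 had no other protein-coding gene nearer and are called the own peaks of a member. The other 62 were nearer to another gene and are given under that gene's name.

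E14 is a line of wild-type mouse embryonic stem cells, here grown on gelatin in medium with serum and LIF. Paused cultures received 200 nM of the mTOR inhibitor INK128 for 24 h, and control cultures did not. There were 4 libraries of each, so that all 8 share the line, the genotype and the medium. Nothing states whether the replicates were separate cultures, so p-values measure the spread between these samples, which may be technical. In a bulk library, fewer cells with an open site and less opening per cell cannot be told apart.

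Wnt proteins bind Frizzled receptors at the cell surface. Without a Wnt signal, a destruction complex built on Axin and Apc lets the kinases Gsk3 and casein kinase mark beta-catenin, the product of Ctnnb1, for degradation. With a signal, beta-catenin accumulates, enters the nucleus and binds Tcf/Lef factors at their target genes. In mouse embryonic stem cells Tcf7l1 is known mainly as a repressor that restrains pluripotency genes, and inhibition of Gsk3 is used to hold the cells in a naive state.

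The start-site regions of 5 members are shown first, because the results below set the peaks at start sites against those farther away. The sequences are the 250 bases before a start site in the RefSeq promoter table (GRCm38.p6), 5′ to 3′ on the strand of the gene. In the first 4, capitals mark the bases that lie inside the deposited peak at the start site. Capitals in the Sp5 sequence mark matches to a Tcf/Lef motif. The Ctnnb1 region is chr9:120933150-120933399 (plus strand), that of Tcf7l1 is chr6:72789046-72789295 (minus strand), that of Gsk3b is chr16:38088751-38089000 (plus strand), that of Fzd7 is chr1:59481897-59482146 (plus strand) and that of Sp5 is chr2:70474673-70474922 (plus strand).
Ctnnb1: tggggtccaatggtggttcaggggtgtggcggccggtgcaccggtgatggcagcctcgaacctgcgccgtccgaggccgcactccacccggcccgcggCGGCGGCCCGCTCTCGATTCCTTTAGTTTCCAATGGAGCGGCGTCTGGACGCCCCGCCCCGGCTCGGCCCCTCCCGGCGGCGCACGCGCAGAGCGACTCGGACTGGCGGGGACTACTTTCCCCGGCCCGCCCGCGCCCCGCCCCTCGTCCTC
Tcf7l1: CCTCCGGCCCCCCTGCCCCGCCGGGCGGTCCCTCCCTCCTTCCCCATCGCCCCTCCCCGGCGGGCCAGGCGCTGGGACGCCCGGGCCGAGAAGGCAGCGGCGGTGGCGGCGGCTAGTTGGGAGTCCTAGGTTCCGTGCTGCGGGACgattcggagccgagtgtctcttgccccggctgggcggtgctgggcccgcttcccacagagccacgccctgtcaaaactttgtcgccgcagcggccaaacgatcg
Gsk3b: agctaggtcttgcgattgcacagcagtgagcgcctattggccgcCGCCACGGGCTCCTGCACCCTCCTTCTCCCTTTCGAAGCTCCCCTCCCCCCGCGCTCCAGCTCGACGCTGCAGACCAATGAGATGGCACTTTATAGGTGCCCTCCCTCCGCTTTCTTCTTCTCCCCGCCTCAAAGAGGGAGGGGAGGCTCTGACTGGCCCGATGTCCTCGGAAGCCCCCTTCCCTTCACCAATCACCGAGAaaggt
Fzd7: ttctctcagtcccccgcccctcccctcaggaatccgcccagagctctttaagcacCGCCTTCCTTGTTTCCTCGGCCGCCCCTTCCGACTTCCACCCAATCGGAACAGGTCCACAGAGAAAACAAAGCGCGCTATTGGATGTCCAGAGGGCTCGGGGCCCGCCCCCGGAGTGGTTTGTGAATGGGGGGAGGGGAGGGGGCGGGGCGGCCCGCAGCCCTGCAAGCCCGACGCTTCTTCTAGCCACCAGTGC
Sp5: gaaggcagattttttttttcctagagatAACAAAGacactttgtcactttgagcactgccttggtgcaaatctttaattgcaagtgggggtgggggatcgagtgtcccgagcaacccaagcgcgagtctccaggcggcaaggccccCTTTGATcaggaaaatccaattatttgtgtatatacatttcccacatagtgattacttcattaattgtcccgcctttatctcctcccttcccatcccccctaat

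The motif search covered CTTTG followed by AA, AT, TT or TA on both strands, spellings of the core that Tcf/Lef factors recognise. At least 1 match was found in 14.8% of all 32851 promoter windows of this length, and at least 2 matches in 1.43%. The table held 11 windows for 8 of the members, with none for Apc or Cdx1, and 3 of the 11 had a match. The Sp5 window had 2 matches, CTTTGTT on the other strand at -222 and CTTTGAT at -104 from the start site, and no deposited peak overlapped it. The Fzd7 window had 1 match, CTTTGTT on the other strand at -130, inside the deposited peak. The third was in the window of an internal start site of Tcf7l2. A match is a description of the sequence only.

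Values are the deposited ones, the reads of a peak scaled by 1 factor for each sample. Changes are log2 differences of value + 1, paused against control, with a standard error (SE) from limma-trend fitted over the 127402 peaks whose mean value reached 10. A peak is called where the Benjamini-Hochberg adjusted p over all of these is under 0.05. The libraries held between 4434037 and 21161767 reads in peaks, with the most in control replicate 1. The median change of all tested peaks was 0.10. That shift depended on the scaling and was -0.01 with TMM factors and -0.05 when libraries were scaled to their total reads. All 7 embryonic stem cell markers (among them Pou5f1, Sox2 and Nanog) had a peak within 2 kb of a gene end. Their summed value was 1272 to 1366 in control and 1445 to 1623 in paused libraries. The totals of all deposited values were likewise apart, 7.32e+06 to 7.65e+06 in control and 8.06e+06 to 8.64e+06 in paused libraries. The peaks of Zfp42 and Esrrb were called higher in paused cells (changes 0.40 and 1.04, limma-trend adjusted p = 0.0117 and 0.000352). Those of Pou5f1, Sox2, Nanog, Klf4 and Tdgf1 were not called (limma-trend adjusted p from 0.0898 to 0.936). Among all tested peaks 11.0% were called higher. Peaks within 2 kb of a gene end were also found for 4 of 4 fibroblast markers (293 to 401 and 374 to 424) and 5 of 5 trophoblast markers (558 to 628 and 560 to 701). They were found for 3 of 5 primitive endoderm markers (237 to 283 and 261 to 303), 3 of 4 mesoderm markers (421 to 518 and 500.0 to 577) and 2 of 3 neural markers (385 to 469 and 407 to 532). Of the peaks of these 5 other lists, 1 was called, that of Mesp1, higher in paused cells, and the part of other cell types in the results was not tested.

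The first question was how many peaks of the pathway changed in paused cells. Of the 178 own peaks, 170 were tested and 8 were below the mean value of 10. In paused cells 14 were called higher and 6 lower, 8.24% and 3.53% of those tested. The shares among all tested peaks were 11.0% and 2.91%, so the pathway's shares lay near the background. The median change of the own peaks was 0.0036, against 0.10 for all tested peaks. The split between rises and falls depended on the scaling. It was 8 higher and 8 lower with TMM factors (5.77% and 4.28% of all tested peaks), 5 and 10 with scaling to total reads (4.51% and 5.36%), and 4 and 9 after a loess correction on peak strength (5.10% and 3.50% of all tested peaks). Leaving out single libraries changed the number of falls from 6 to 2 (without control replicate 1) and to 3 (without control replicate 2 or 3), and the number of rises from 14 to 9 (without paused replicate 4). Over all fits without 1 library the falls ranged from 2 to 9 and the rises from 9 to 13. None of the 20 called peaks changed direction under any of the alternatives run, and 5 were called in every alternative that tested them. At 16 of the 20 the paused and control values did not overlap. Among all tested own peaks 10% were above and 7.06% below without overlap, against 13.0% and 4.36% of all tested peaks. An FDR under 0.05 was listed for 17 own peaks in the authors' deposited table, and 16 of these are among the 20.

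**Figure D1:**
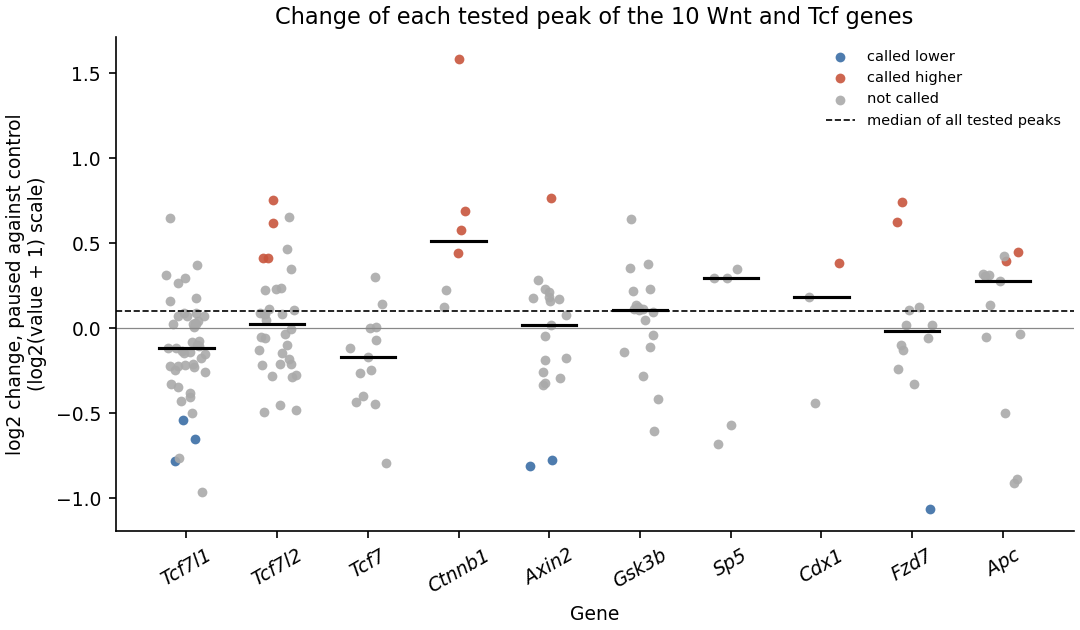
Log2 change of each of the 170 tested own peaks (points, with horizontal scatter only for display), paused against control, for the 10 genes on the x axis. Short bars are the median of each gene and the dashed line is the median of all tested peaks (0.10); the 4 called peaks of Ctnnb1 lie between 0.44 and 1.58, and the 3 called peaks of Tcf7l1 lie between -0.78 and -0.54.

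By position, the shares called higher and lower both lay above those of all genes in the flanks and below them inside the genes. These differences rest on few called peaks and were not tested. Of 9 tested peaks within 1 kb of a start site in the promoter table, which holds none for Apc or Cdx1, 0 were called by limma-trend, 1 had an unadjusted p under 0.05, and edgeR and DESeq2 called 0. Such peaks of all genes were called higher in 11.1% and lower in 0.559%. The called Apc peak 579 bp from a gene end, given below, is counted among those inside the genes. Of 57 tested peaks in the flanks, 11 were called higher and 4 lower, against 11.2% and 3.46% of flank peaks of all genes. Of 104 tested peaks inside the genes, 3 were called higher and 2 lower, against 9.35% and 3.09%. The position of these peaks relative to exons was not analysed here.

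Fzd7 (chromosome 1, 59482147 to 59486955) encodes a Frizzled receptor that embryonic stem cells express. All 12 of its own peaks were tested, 2 were called higher and 1 lower. The largest rise was 48767 bp upstream of the gene (59433280 to 59433480), with values of 50.1, 57.3, 37.3 and 55.8 in the control replicates and 87.7, 82.0, 68.3 and 98.4 in the paused ones. Every paused value was above every control value, with a change of 0.74 (SE 0.16, limma-trend adjusted p = 0.00165). A second rise, 9578 bp upstream (59472469 to 59472669), went from 60.3 ± 8.17 to 93.9 ± 16.6 (SD, n = 4), a change of 0.62 (SE 0.15, limma-trend adjusted p = 0.0049). Between these 2 peaks, 12681 bp upstream (59469366 to 59469566), a weak peak fell by 1.06 (SE 0.30, limma-trend adjusted p = 0.0134).

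The values of this weak peak were 32.2, 27.5, 32.2 and 17.6 in control and 6.92, 9.46, 20.2 and 16.4 in paused replicates, and the groups overlapped. The fall rested on 12 to 93 reads in the control and 6 to 14 in the paused libraries and was not called without control replicate 1 (adjusted p = 0.0573) or paused replicate 1 (0.061). The rise at 9578 bp was not called after loess correction (adjusted p = 0.060) or in DESeq2 (0.088), and that at 48767 bp was called under all alternatives. At the start site, the peak (59481952 to 59482152), 195 bases of which are in capitals above, had 306 ± 21.0 in control and 333 ± 8.25 in paused cells (SD, n = 4). The groups did not overlap there, but the change of 0.13 was not called (SE 0.10, limma-trend adjusted p = 0.434). A further peak on the other side, called higher by 0.47 (59516185 to 59516385, limma-trend adjusted p = 0.0141), was nearer to Gm973. It was not called with TMM factors or without paused replicate 2.

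Apc (chromosome 18, 34220297 to 34322190) encodes a scaffold of the destruction complex. Of its 13 tested own peaks 2 were called higher and none lower. In edgeR 1 was called higher and 1 lower with either scaling, and DESeq2 called 0. The strongest, inside the gene and 579 bp from its lower-coordinate end (34220776 to 34220976), had 200.2, 266, 247 and 262 in the control replicates. The paused replicates had 299.9, 325, 368 and 335, all above the controls. The change was 0.45 (SE 0.11, limma-trend adjusted p = 0.005). It was not called with scaling to total reads (adjusted p = 0.0529), after loess correction (0.0879) or in DESeq2 (0.0667). The second, 27380 bp inside the gene from the same end (34247577 to 34247777), went from 97.9 ± 14.0 to 128 ± 15.3 (SD, n = 4; change 0.39, SE 0.13, limma-trend adjusted p = 0.044). That call was weak: it was lost under all 4 other scalings, in all 3 count-based fits and without control replicate 2 or 4 or any of the 4 paused replicates, with adjusted p from 0.0509 to 0.398.

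Axin2 (chromosome 11, 108917828 to 108950783) encodes a second scaffold of the complex and is itself a target of beta-catenin, so that it acts as a feedback inhibitor. Of 19 tested own peaks, 1 was called higher and 2 lower. The rise was 26598 bp below the gene (108891130 to 108891330), with values of 35.3, 33.4, 40.6 and 33.8 in control and 49.6, 77.3, 57.4 and 64.4 in paused replicates. The groups did not overlap (change 0.77, SE 0.17, limma-trend adjusted p = 0.00255). On the other side, 11063 bp past the end of the gene (108961746 to 108961946), values were 47.7, 39.4, 61.0 and 44.1 in control and 25.4, 25.2, 26.4 and 32.8 in paused replicates. This peak fell by 0.78 (SE 0.20, limma-trend adjusted p = 0.006), again without overlap. Both calls were made in every alternative that tested these peaks.

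The second fall at Axin2, 19619 bp below the gene (108898109 to 108898309), went from 30.5 ± 6.78 to 17.8 ± 7.83 (SD, n = 4), with overlapping groups (change -0.81, SE 0.27, limma-trend adjusted p = 0.0368). It was not called in edgeR with the deposited factors or in DESeq2, nor without control replicate 2, 3 or 4 or paused replicate 1 or 4 (adjusted p from 0.0507 to 0.157). The strongest own peak lay over the start site (108920236 to 108920436), with 185 ± 19.4 in control and 208 ± 19.1 in paused cells (SD, n = 4). Its change of 0.17 (SE 0.12, limma-trend adjusted p = 0.338) was not called and became -0.035 after loess correction.

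Gsk3b (chromosome 16, 38089001 to 38246084) encodes the kinase that marks beta-catenin. Of 18 tested own peaks none was called by limma-trend in either direction, with changes from -0.60 to 0.64. At an unadjusted p under 0.05 there were 3 higher and 1 lower. With the deposited factors edgeR called 1 higher, and with TMM factors it called 0, as did DESeq2. Its start-site peak (38088795 to 38088995), which lies wholly inside the sequence above, was the strongest own peak of all 10 genes. The values were 412, 457, 474 and 454 in the control replicates and 489, 502, 589.6 and 535 in the paused ones. Although every paused value was above every control value, the change of 0.23 did not pass (SE 0.10, limma-trend adjusted p = 0.105). The smallest adjusted p was 0.0784, for a peak 65310 bp into the gene (38154211 to 38154411) with 18.1 ± 3.26 in control and 29.3 ± 8.08 in paused cells (SD, n = 4). It was called without paused replicate 4 (0.0462) and in edgeR with the deposited factors (0.0478).

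Ctnnb1 (chromosome 9, 120933400 to 120960507) encodes beta-catenin, which carries the Wnt signal into the nucleus and also joins cadherins to the cytoskeleton at cell contacts. Its 6 own peaks were 1 at the start site and 5 upstream. In paused cells 4 of the 5 upstream peaks were called higher. The changes of all 6 were above 0.10, the median of all tested peaks. The largest change among the own peaks of all 10 genes was 30554 bp upstream (120902746 to 120902946). There the control replicates had values of 12.5, 11.9, 11.9 and 8.82 and the paused replicates 26.5, 39.4, 35.7 and 42.2. The mean value was 3.19 times as high in paused cells (change 1.58, SE 0.26, limma-trend adjusted p = 4.81e-05), and the groups were far apart. The peak was weak, with 6 to 36 reads in the control and 23 to 36 in the paused libraries.

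The next peak, 39715 bp upstream (120893585 to 120893785), had 68.5, 58.5, 55.9 and 58.8 in control and 93.4, 88.3, 104 and 105 in paused replicates (change 0.69, SE 0.14, limma-trend adjusted p = 0.000958). At 18145 bp upstream (120915155 to 120915355) the values were 85.7, 63.3, 59.3 and 69.1 against 119, 107, 90.0 and 97.2 (change 0.57, SE 0.14, limma-trend adjusted p = 0.00612). The strongest own peak, 13997 bp upstream (120919303 to 120919503), had 152, 139, 139 and 150 in control and 179, 213, 188 and 212 in paused replicates (change 0.44, SE 0.12, limma-trend adjusted p = 0.00777). At each of these 4 called peaks the lowest paused value was above the highest control value. Among all tested peaks 13.0% were apart in this direction.

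The peak at the Ctnnb1 start site (120933248 to 120933448), which covers the capitals in the sequence above, did not follow. It had 105, 112, 77.9 and 79.4 in control and 104, 112, 91.5 and 97.2 in paused replicates, with full overlap (change 0.12, SE 0.14, limma-trend adjusted p = 0.60). All 4 upstream calls held when any single library was left out. The peaks at 39715 and 30554 bp were called in every alternative that tested them. That at 18145 bp was lost with scaling to total reads (adjusted p = 0.0623), after loess correction (0.0847), in edgeR with TMM (0.0501) and in DESeq2 (0.168), and that at 13997 bp with total reads (0.0884), after loess correction (0.170) and in DESeq2 (0.124). Past the other end of the gene, 2 peaks nearer to Ulk4 were also called higher, 2156 and 42616 bp from Ctnnb1, with changes of 0.55 and 0.81 (limma-trend adjusted p = 0.00798 and 0.0111). Both were lost with scaling to total reads and in DESeq2, and the farther one also without paused replicate 1.

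**Figure D2:**
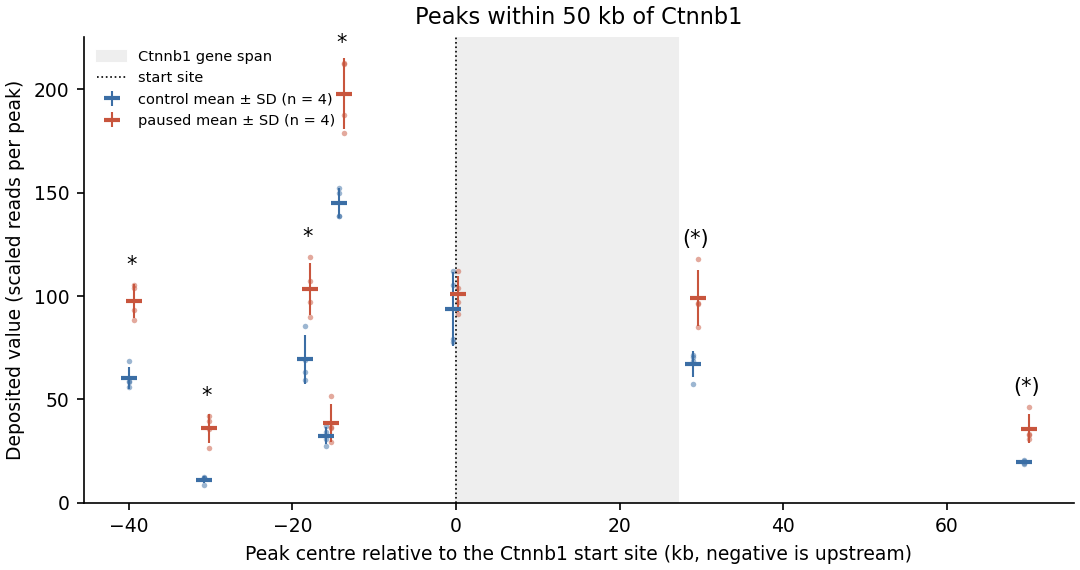
Deposited values (y axis) of the 8 peaks within 50 kb of Ctnnb1 against the distance of the peak centre from the start site (x axis, kb). Points are replicates and bars the mean ± SD (n = 4) of control and paused libraries, drawn slightly apart; an asterisk marks a called own peak and one in brackets a called peak nearer to Ulk4, and the peak at the start site (93.7 against 101) is not called.

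Tcf7l1 (chromosome 6, 72626371 to 72789045) encodes the most abundant Tcf factor of mouse embryonic stem cells. It had 50 own peaks, the most of the 10 genes, and 42 of them lay inside the gene. Of 47 tested, none was called higher and 3 were called lower by limma-trend. At an unadjusted p under 0.05 there were 1 higher and 7 lower. Lower calls numbered 4 in edgeR with the deposited factors, 7 in edgeR with TMM and 1 in DESeq2, and higher calls 0 in each. Over all 127402 tested peaks these fits called 4621, 7058 and 1892 lower and 16424, 9084 and 3902 higher. In 6 of the 47 all paused values were below all control values, and in none were they above, where the shares among all tested peaks were 4.36% and 13.0%. Over the own peaks of all 10 genes 12 were below and 17 above without overlap. For comparison, the shares below were 0.877% for start-site peaks of all genes, 4.88% inside genes and 4.99% in flanks. The median change was -0.12, and 7 of the 47 had a change above 0.10, the median of all tested peaks. By position, the median over all genes was 0.063 for peaks inside genes, 0.079 in flanks and 0.19 at start sites.

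The largest called fall at Tcf7l1 was inside the gene, 28516 bp from the start site (72760429 to 72760629). The control replicates had values of 41.1, 41.8, 25.4 and 32.3 and the paused replicates 20.8, 18.9, 17.1 and 22.3, without overlap (change -0.78, SE 0.23, limma-trend adjusted p = 0.0173). A second one, 12450 bp from the start site (72776495 to 72776695), had 30.8, 29.9, 32.2 and 26.5 in control and 18.5, 17.4, 18.6 and 19.9 in paused replicates (change -0.65, SE 0.23, limma-trend adjusted p = 0.0498). A peak 11814 bp upstream of the gene (72800759 to 72800959) had 62.6, 49.0, 62.7 and 69.1 in control and 40.4, 34.7, 43.4 and 46.9 in paused replicates (change -0.54, SE 0.17, limma-trend adjusted p = 0.0269). The first was not called without control replicate 1 or 2 (adjusted p = 0.0826 and 0.0682). The second was lost without any single library (0.0594 to 0.125), in DESeq2 (0.113) and without the filter (0.0527). The third was lost without control replicate 1, 3 or 4 or paused replicate 2 (0.0597 to 0.0873) and in DESeq2 (0.0527).

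The strong peaks of Tcf7l1 showed no called change. The strongest, 111330 bp into the gene (72677615 to 72677815), had 329 ± 30.1 in control and 348 ± 46.2 in paused cells (SD, n = 4; change 0.07, SE 0.11, limma-trend adjusted p = 0.70). The start-site peak (72789150 to 72789350), the part in capitals in the Tcf7l1 sequence, had 181 ± 13.6 and 186 ± 31.9 (SD, n = 4; change 0.02, SE 0.12, limma-trend adjusted p = 0.927). Both of these changes turned negative under other scalings. Of 11 peaks in the window that were nearer to other genes, 1 was called, a fall of 0.81 near Kcmf1 (72838849 to 72839049; limma-trend adjusted p = 0.0156), with overlapping groups. It was not called in DESeq2 or without control replicate 3 or 4 or paused replicate 2.

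**Figure D3:**
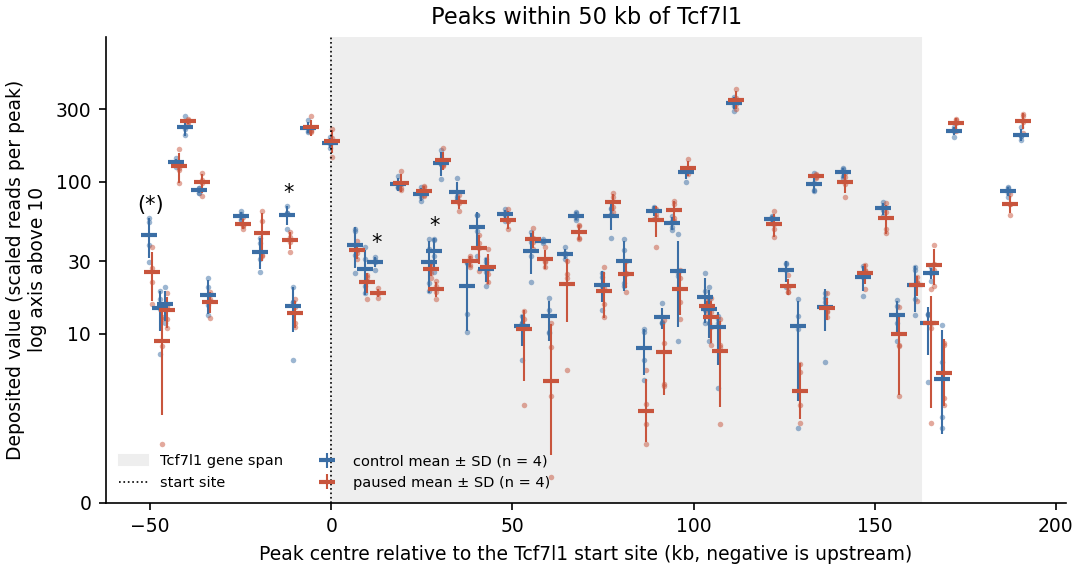
Deposited values (y axis, logarithmic above 10 and linear below) of the 61 peaks within 50 kb of Tcf7l1 against the distance of the peak centre from the start site (x axis, kb, negative is upstream). Points are replicates and bars the mean ± SD (n = 4); asterisks mark the 3 called own peaks, all lower in paused libraries, and one in brackets a called peak nearer to Kcmf1.

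Tcf7l2 (chromosome 19, 55741797 to 55933659) encodes a Tcf factor that acts as activator or repressor depending on the tissue. All 37 peaks in its window were its own. Of 34 tested, 4 were called higher and none lower, and all 4 lay upstream of the gene. The strongest own peak, 12232 bp from the gene (55729465 to 55729665), had 147, 139.7, 147 and 139.6 in the control replicates and 171, 194, 194 and 207 in the paused ones, without overlap (change 0.41, SE 0.11, limma-trend adjusted p = 0.0129). The others were 35024 bp (55706673 to 55706873), 22565 bp (55719132 to 55719332) and 5520 bp (55736177 to 55736377) from the gene, with changes of 0.62, 0.41 and 0.76. Their limma-trend adjusted p was 0.0201, 0.0392 and 0.0367, and the groups overlapped at 22565 bp. The 24 own peaks inside the gene held none of the calls.

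The 4 calls at Tcf7l2 were not made by limma-trend under the other scalings, and edgeR with TMM called 1 of them, that at 5520 bp. With TMM factors the 4 changes were 0.30, 0.51, 0.30 and 0.65, in the order given, and none was called (adjusted p from 0.0682 to 0.157). None was called either with scaling to total reads, after loess correction or in DESeq2, nor without paused replicate 4 (adjusted p from 0.0588 to 0.127). Without paused replicate 1 the peaks at 35024, 22565 and 5520 bp were lost (0.0579 to 0.148). Without control replicate 1, 3 or 4 the peaks at 22565 and 5520 bp were lost (0.0513 to 0.139), as was that at 22565 bp without paused replicate 2 (0.157). RefSeq lists 2 start sites, and the peak nearest to each was not called. That near the first (55741418 to 55741618) changed by 0.08 and that near the second, internal one (55895498 to 55895698) by 0.09 (limma-trend adjusted p = 0.732 and 0.760), and the second turned negative under other scalings.

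Tcf7 (chromosome 11, 52246527 to 52283383) encodes the Tcf factor that mostly activates Wnt targets and is a target itself. None of its 13 own peaks was called by limma-trend, and 1 higher and 1 lower had an unadjusted p under 0.05. A fall of 1 peak was called by edgeR with either scaling, and DESeq2 called 0. The median change was -0.17, and 2 of the 13 had a change above 0.10. The strongest own peak, in the flank 3576 bp from the nearest start site (52286490 to 52286690), had 140 ± 27.6 in control and 132 ± 10.7 in paused cells (SD, n = 4; change -0.07, SE 0.13, limma-trend adjusted p = 0.759). Nearest to a start site, a peak (52283409 to 52283609) had 44.6 ± 7.18 and 44.4 ± 4.37 (SD, n = 4). The smallest adjusted p belonged to a weak peak inside the gene (52265645 to 52265845), with 19.0, 19.1, 18.6 and 10.3 in control and 5.77, 12.6, 12.4 and 7.03 in paused replicates. Its groups overlapped through control replicate 4 (change -0.79, SE 0.34, limma-trend adjusted p = 0.116). Of the peaks nearer to other genes in this window, 1 near Skp1 was called higher by 0.42 (52231833 to 52232033; limma-trend adjusted p = 0.0318), a call that was lost with TMM factors and without control replicate 3 or 4 or paused replicate 2, 3 or 4.

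Sp5 (chromosome 2, 70474923 to 70477726) encodes a zinc-finger factor that is among the most direct targets of beta-catenin in embryonic stem cells. It had 5 own peaks, none of them called by limma-trend with the deposited factors, edgeR or DESeq2, and 1 lower peak had an unadjusted p under 0.05. The nearest to the start site was 680 bp inside the gene (70475503 to 70475703), past the sequence shown above, with 24.5, 26.3, 23.7 and 25.0 in control and 35.8, 25.2, 27.9 and 35.2 in paused replicates (change 0.29, SE 0.22, limma-trend adjusted p = 0.383). The largest change in size was -0.68 (SE 0.27, limma-trend adjusted p = 0.0808), 17199 bp upstream (70457624 to 70457824). There the paused replicates split into 2 low and 2 high values, 34.6, 12.6, 12.4 and 35.2, against 28.4, 37.0, 37.3 and 35.3 in control. It was called with scaling to total reads (adjusted p = 0.0435) and without paused replicate 1 (0.0300) or 4 (0.0331), and its change ranged from -0.92 to -0.44 when 1 library was left out.

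Cdx1 (chromosome 18, 61018862 to 61036199) encodes a homeobox factor of the hindgut and posterior embryo and is a Wnt target. Of 20 peaks in its window only 3 were its own, and 17 were nearer to other genes. The strongest own peak, inside the gene and 1092 bp from its higher-coordinate end (61035007 to 61035207), was called higher. It had 129, 130.2, 159 and 168 in control and 148, 192, 209 and 219 in paused replicates, with paused replicate 1 among the controls (change 0.38, SE 0.13, limma-trend adjusted p = 0.0384). The call was lost under all 4 other scalings, in edgeR with TMM and in DESeq2, and without control replicate 1 or 2 or paused replicate 2, 3 or 4 (adjusted p from 0.076 to 0.373). Of the neighbours, 1 peak near Slc6a7 (61013647 to 61013847) and 2 near Pdgfrb (61050159 to 61050359 and 61077226 to 61077426) were called higher, with changes of 0.53, 0.79 and 0.47 and limma-trend adjusted p of 0.00578, 0.0302 and 0.0239. All 3 were lost with scaling to total reads and in DESeq2. Those near Pdgfrb were also lost with TMM factors and without control replicate 2 or paused replicate 2 or 4, and the farther one without control replicate 3.

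Because peaks of one gene are not replicates, the values of the own peaks were also summed to 1 value per gene and sample and fitted over all 18182 genes tested. The median change of these sums over all genes was 0.15, and 29.8% of genes were called higher and 1.40% lower, so that a rise alone sets no gene apart. Of the 10 members 4 were called higher and none lower, and 2 were called without paused replicate 3 or without paused replicate 4. With TMM factors, under which the median over all genes was 0.04, 1 was called higher, Ctnnb1, and 2 lower, Tcf7l1 and Tcf7.

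The Ctnnb1 sum was 459, 412, 381 and 397 in the control replicates and 558, 596, 538 and 606 in the paused ones, 1.39 times as high, with no overlap (change 0.48, SE 0.07, limma-trend adjusted p = 4.8e-05). The exact two-sided permutation p of this sum was 0.0286, the smallest that 70 arrangements allow. The sums of Tcf7l2, Gsk3b and Apc, given below, had the same permutation p. The Ctnnb1 call held without each of the 8 libraries (adjusted p at most 0.000764) and under TMM factors (change 0.37, adjusted p = 0.00171) and loess correction (0.33, adjusted p = 0.00536). It was not called from the peaks within 10 kb of the gene alone (change 0.12, adjusted p = 0.51), since the 4 called peaks lie farther away.

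The Apc sum went from 743 ± 6.98 to 893 ± 61.0 (SD, n = 4; change 0.26, SE 0.06, limma-trend adjusted p = 0.00213). For Gsk3b, the sum went from 1008 ± 28.6 to 1128 ± 39.2 (SD, n = 4; change 0.16, SE 0.05, limma-trend adjusted p = 0.0199), and the Tcf7l2 sum from 1602 ± 17.2 to 1742 ± 33.5 (SD, n = 4; change 0.12, SE 0.04, limma-trend adjusted p = 0.0316). In each of the 3 genes every paused value was above every control value. How often the sums of all genes were apart in this way was not counted. The library totals of all deposited values were themselves apart in this direction, at most 7.65e+06 in control and at least 8.06e+06 in paused libraries. With TMM factors none of these 3 was called (changes 0.15, 0.05 and 0.01), and that of Tcf7l2 was negative with total reads, after loess correction and in edgeR with TMM. The Gsk3b call was lost without control replicate 4 or paused replicate 3 or 4 (adjusted p from 0.051 to 0.0638), and the Tcf7l2 call without control replicate 1, 2 or 3 or paused replicate 3 or 4 (0.056 to 0.0921).

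The Tcf7l1 sum was 2811, 2673, 2774 and 2697 in control and 2601, 2552, 2703 and 2696 in paused replicates, with overlapping groups (change -0.05, SE 0.04, limma-trend adjusted p = 0.245). With TMM factors the change was -0.16 (adjusted p = 0.00187) and after loess correction -0.20 (adjusted p = 0.000157), and 2.55% and 4.30% of all genes were called lower in those fits. The Tcf7 sum changed by -0.07 (SE 0.06, limma-trend adjusted p = 0.406), by -0.18 with TMM factors (adjusted p = 0.0488) and by -0.22 after loess correction (adjusted p = 0.0138). Both sums changed downwards under every setting run, but whether they passed the test depended on the scaling. The Cdx1 sum changed by 0.28, which was not called (SE 0.12, limma-trend adjusted p = 0.0629), with a call without control replicate 4 (0.0333) or paused replicate 1 (0.0108). The sums of Fzd7, Axin2 and Sp5 changed by 0.09, 0.08 and 0.07 (limma-trend adjusted p = 0.199, 0.309 and 0.645), and these directions turned with TMM factors.

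**Figure D4:**
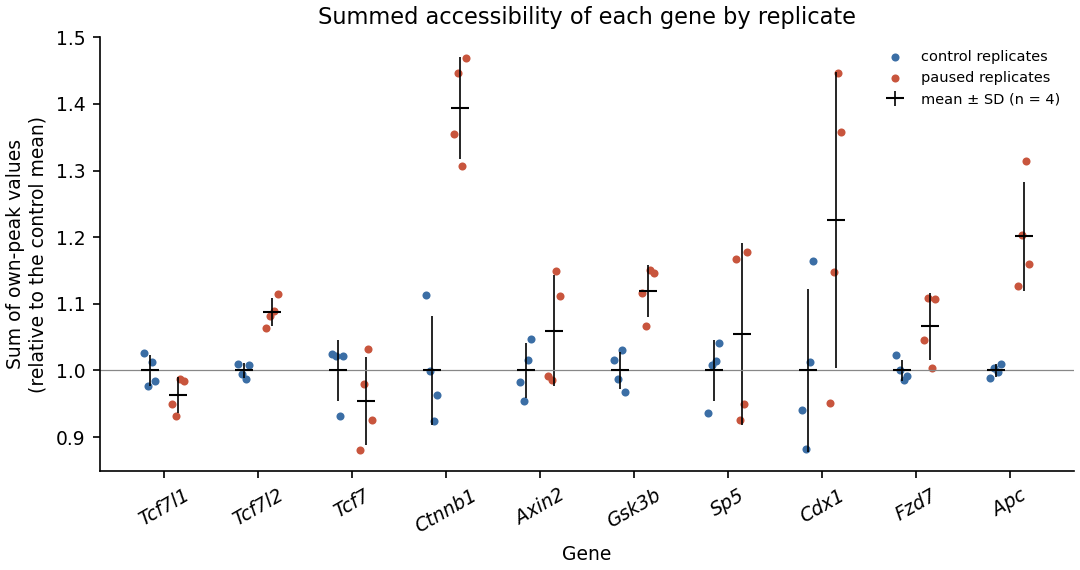
Sum of the deposited values of all own peaks of each gene (x axis) in every replicate, relative to the mean of the 4 control replicates (y axis). Points are replicates and bars the mean ± SD (n = 4). The paused values of Ctnnb1 average 1.39. The 2 groups overlap for 6 of the 10 genes, and the share with overlap among all genes was not counted. The library totals of all deposited values do not overlap, with the paused ones higher.

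**Figure D5:**
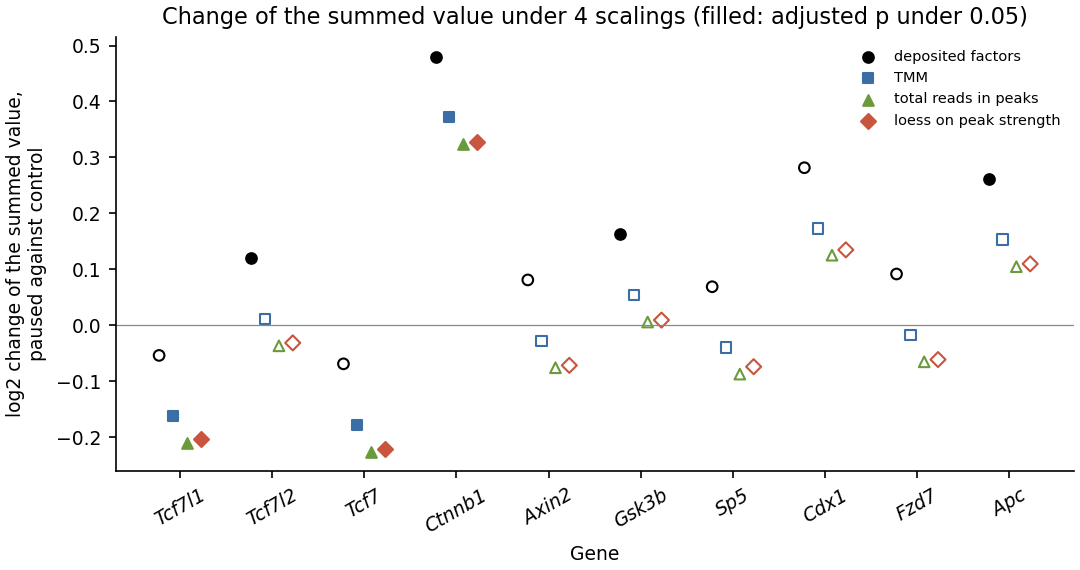
Log2 change of the summed value of each gene (y axis) under 4 scalings: the deposited factors, TMM, total reads in peaks and a loess correction on peak strength. Filled symbols have an adjusted p under 0.05 over all genes; Ctnnb1 is above 0 and filled under all 4, from 0.32 to 0.48, and Tcf7l1 is below 0 under all 4 and filled under the latter 3.

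As a description, the genes on other chromosomes with at least 5 own peaks whose summed value was most like that of Tcf7l1 over the 8 samples were Larp4b (Pearson r = 0.918), Arsi (0.906) and Plekha7 (0.903), out of 8306 genes compared. The 8 points share library, depth and scaling.

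The rest of the pathway was read from a list of 93 further genes ordered by role. Their 832 own peaks, 799 of them tested, held 77 called higher (9.64%) and 27 called lower (3.38%), with a median change of 0.08, against 11.0% and 2.91% of all tested peaks. Among ligands and genes for their release, 10 of 183 tested peaks were called higher (5.46%) and 9 lower (4.92%). The receptors had 19 and 5 of 160 (11.9% and 3.13%), and secreted inhibitors and genes of receptor turnover 17 and 4 of 134 (12.7% and 2.99%). The destruction complex with its cytoplasmic partners had 15 and 2 of 116 (12.9% and 1.72%). Nuclear partners of beta-catenin and Tcf factors had 10 and 5 of 162 (6.17% and 3.09%), and targets 8 and 4 of 63 (12.7% and 6.35%). Lgr5, Nkd1 and Notum were listed as targets and also in another role, so that their peaks count in both roles. Differences between the roles were not tested. The summed value was called higher for 31 of the 93 genes and lower for none by limma-trend, against 29.8% and 1.40% of all genes.

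A peak inside Csnk1e, a casein kinase that takes part in Wnt signal transduction, went from 52.5 ± 4.84 to 125 ± 13.7 (SD, n = 4; chromosome 15, 79436776 to 79436976; change 1.23, limma-trend adjusted p = 3.59e-07). Peaks inside the ligand genes Wnt6 (chromosome 1, 74779163 to 74779363) and Wnt3 (chromosome 11, 103816794 to 103816994) rose by 1.43 and 1.08. Peaks inside Sfrp4, a secreted inhibitor, and Crebbp, a co-activator, rose by 1.02 and 1.18. The receptor genes Ror2 and Ror1 each held a peak that rose, by 0.96 and 0.90. The target gene Sp8, a relative of Sp5, had a fall of 1.26, 31553 bp from the gene (chromosome 12, 118814635 to 118814835; limma-trend adjusted p = 0.00264). These 8 were picked from the called peaks with the smallest adjusted p in each role, so what follows is not independent of that choice. At these 8 peaks the paused and control values did not overlap, and each was called in every alternative that tested it. Among all tested peaks 13.0% were above and 4.36% below without overlap.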

How the data were processed

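ATAC-seq signal over 134407 peaks in 4 control and 4 paused libraries of E14 mouse embryonic stem cells (50000 cells each, read as pairs of 150 bp, per the labels' protocols) was analysed. The submitters' processing notes name FastQC, Trim Galore, Bowtie2 2.4.1, MACS3 3.0.3, DiffBind 3.16.0 and the build mm10, without their roles; read filters and the handling of the Tn5 offset are not given in the sources used here. The deposited signal is the reads of a peak scaled by 1 factor for each sample, worked out from the values: at least 99.9% of values in each column lay within 0.0055 of a whole multiple of 1 step. The log2 mean and log2 fold columns and the p-values and FDR deposited by the authors belong to their own comparison and were used only where their table is named.

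The main test was limma-trend (limma 3.58.1, R 4.3.3) on log2(value + 1), which understates the change of weak peaks, over peaks whose mean value reached 10, and likewise on the summed own peaks of each gene. Raw counts had been allowed for as the unit; the signal took the test laid down for it. Alternatives were other scalings of the recovered reads, edgeR 4.0.16 and DESeq2 1.42.0 on those reads, a pseudocount of 0.1, other filters (none, a mean of at least 50), a replicate block, a 10 kb window, and each library left out in turn. The count test in edgeR called 21045 peaks when given the deposited factors and 16142 when given TMM factors. An own peak has no nearer protein-coding gene, by distance to the gene span, among 21887 genes of GRCm38.p6. Start sites come from the RefSeq promoter table, which holds none for Apc and Cdx1; for these the peak nearest to either gene end was named, and none was counted as a start-site peak. A peak with 0 reads allows up to 3 reads, a value of 1.04 in control replicate 1 and 5.08 in control replicate 3. Counting errors cover the sampling of reads only, since PCR copies are not independent molecules.

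The named peaks were, for each member, the one nearest to the start, the strongest, that with the smallest adjusted p and up to 4 called; in the wider list up to 2 called per role, of which 8 are given. The members and lists were chosen with earlier results of these data known. In simulated data limma-trend called 60 of 99 peaks changed by log2 1 and 86 of 96 changed by 1.5, with 1 unchanged peak called among 126887 tested. For summed values it called 82 of 100 genes changed by 0.5 and 94 of 100 changed by 1, with 6 unchanged genes called among 18151 tested. The simulated reads had 1 common dispersion for all peaks and no scaling error between the groups. These rates therefore need not hold for the real data, whose median shift depended on the scaling.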

Additional observations from a re-analysis of the deposited data

Results flagged for a closer look

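In 90 groups of 4 values (the named peaks and the summed values of the 10 genes, in control and paused libraries) 4 held a value apart from the rest: its gap to the nearest, as a share of the whole range of the group, was above Dixon's 95% critical value. Chance gives about 1 in 20 such groups. Control replicate 4 was low at the weak Tcf7 peak on chromosome 11 (52265645), with a value of 10.3 against 18.6 to 19.1. It was also low at the Ctnnb1 peak 30554 bp upstream (120902746), with 8.82 against 11.9 to 12.5; leaving it out kept that call. Paused replicate 4 was high at the Axin2 peak past the end of the gene (108961746), with 32.8 against 25.2 to 26.4, and leaving it out kept the call as well. The summed value of Tcf7 was low in control replicate 3, with 740.0 against 811 to 814.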

How the results depend on the processing

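With the replicate number as a block, 21994 of all peaks, 15 member peaks higher and 7 lower, 5 member genes (Cdx1 added, adjusted p = 0.0223; the Gsk3b start peak was also called, adjusted p = 0.0361), 127 peaks of the wider list and 21 named peaks were called. The main fit did not pair same-numbered samples, and whether they shared a batch is not known. The correlations of their deviations from the group means were 0.079, 0.036, 0.133 and 0.039. Between samples of different number they were -0.105 to 0.070. Not every sample correlated best with its own number. Against 17660 peaks called in all, DESeq2 called 5794, loess correction 10956, a mean of at least 50 10910 and the fits without 1 library 11570 to 15845. Against 14 member peaks called higher, there were 8 with TMM, 8 with DESeq2 size factors, 8 in edgeR with TMM, 5 with total reads, 4 after loess correction, 4 in DESeq2, 5 within 10 kb and 9 to 13 without 1 library. Against 6 called lower, there were 10 with total reads, 12 in edgeR with TMM, 3 in DESeq2, 1 with a mean of at least 50, 2 within 10 kb and 2 to 9 without 1 library. Against 4 member genes called, all higher, there were 2 with DESeq2 size factors, Ctnnb1 higher and Tcf7l1 lower. There was 1 from the mean log2 value of peaks (Ctnnb1), 2 within 10 kb (Apc and Gsk3b, both higher) and 2 to 5 without 1 library. Against 104 peaks of the wider list called, there were 39 in DESeq2, 66 with a mean of at least 50 and 71 to 92 without 1 library. Of the named peaks 20 were called, against 7 in DESeq2, 10 after loess correction, 11 with a mean of at least 50, 12 with total reads and 13 to 17 without 1 library. Beyond what a stricter filter or fewer samples remove, the cause was not tested.

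Of the changes that turned direction, all were uncalled except the Tcf7l2 sum. With TMM factors, the change was -0.036 for the strongest Tcf7l1 peak, -0.086 for the Tcf7l1 start peak, -0.020 for the internal Tcf7l2 start peak, -0.10 for the Tcf7 start peak, -0.028 for the Axin2 sum, -0.040 for the Sp5 sum and -0.017 for the Fzd7 sum. With DESeq2 size factors, the change was -0.037 for the strongest Tcf7l1 peak, -0.087 for the Tcf7l1 start peak, -0.021 for the internal Tcf7l2 start peak, -0.11 for the Tcf7 start peak, -0.029 for the Axin2 sum, -0.040 for the Sp5 sum and -0.018 for the Fzd7 sum. With total reads, the change was -0.084 for the strongest Tcf7l1 peak, -0.13 for the Tcf7l1 start peak, -0.068 for the internal Tcf7l2 start peak, -0.15 for the Tcf7 start peak, -0.032 for the Ctnnb1 start peak, -0.030 for the Fzd7 start peak, -0.037 for the Tcf7l2 sum, -0.076 for the Axin2 sum, -0.087 for the Sp5 sum and -0.065 for the Fzd7 sum. After loess correction, the change was -0.14 for the strongest Tcf7l1 peak, -0.18 for the Tcf7l1 start peak, -0.085 for the internal Tcf7l2 start peak, -0.13 for the Tcf7 start peak, -0.067 for the Ctnnb1 start peak, -0.035 for the Axin2 start peak, -0.082 for the Fzd7 start peak, -0.032 for the Tcf7l2 sum, -0.072 for the Axin2 sum, -0.074 for the Sp5 sum and -0.061 for the Fzd7 sum. In edgeR with TMM, the change was -0.026 for the strongest Tcf7l1 peak, -0.067 for the Tcf7l1 start peak, -0.083 for the internal Tcf7l2 start peak, -0.18 for the Tcf7 start peak, -0.049 for the Ctnnb1 start peak, -0.030 for the Tcf7l2 sum, -0.064 for the Axin2 sum, -0.040 for the Sp5 sum and -0.061 for the Fzd7 sum. In DESeq2, the change was -0.027 for the strongest Tcf7l1 peak, -0.069 for the Tcf7l1 start peak, -0.050 for the internal Tcf7l2 start peak, -0.16 for the Tcf7 start peak and -0.031 for the Ctnnb1 start peak. In edgeR with deposited factors, the change was -0.078 for the Tcf7 start peak. From the mean log2 value of peaks, the change was -0.042 for the Tcf7l2 sum, -0.056 for the Axin2 sum, -0.063 for the Sp5 sum and -0.024 for the Fzd7 sum. Without 1 library it ranged from -0.0070 to 0.14 for the strongest Tcf7l1 peak, -0.068 to 0.14 for the Tcf7l1 start peak, -0.053 to 0.19 for the internal Tcf7l2 start peak, -0.078 to 0.073 for the Tcf7 start peak and -0.14 to 0.057 for the strongest Tcf7 peak. Depth limits the weakest named peaks, which rest on as few as 5 reads in a library.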
